A study of Danio rerio with 2 samples.

Results

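In zebrafish liver, 10 genes of antigen processing were followed out of 25939 genes in the table. They are psmb8a, psmb9a, psmb12, psmb13a, tap1, tap2a, tapbp.1, b2m, nlrc5 and ciita. They were chosen by name, as the inducible proteasome subunits, the peptide transporter, its loading partner, the class I light chain and the class I and class II transcription regulators. All 10 were found by their Ensembl identifiers. For 8 of them the Ensembl name matched, and psmb8a and psmb9a stand under the names PSMB8 and PSMB9, which the RefSeq table lists as synonyms. Each of these Ensembl names was carried by 1 row.

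The data are 2 poly(A) RNA libraries from liver (Danio rerio), 1 from ambp ko fish and 1 from WT fish, both on a high-fat diet. The ko allele, the age and sex of the fish and the number of livers in a library are not given in the sources used here. This gene encodes the precursor of alpha-1-microglobulin and bikunin, and the comparison asks how its loss alters liver expression on this diet. With 1 library per genotype there is no replicate check and no test, and every difference below describes these 2 libraries.

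The library labelled ambp ko held 18357830 reads and the WT library 15659846. Levels are CPM, reads scaled to a common library size with sizes adjusted by TMM, and intervals are 95% intervals that cover counting error only. The targeted gene stood at 154 CPM in ambp ko and 3506 CPM in WT, so the ko library had 4.39% of the WT level. As a check of the tissue label, 7 hepatocyte markers summed to 140977 CPM in ambp ko and 155825 CPM in WT.

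As background, cells display fragments of their own proteins on class I molecules. The proteasome cuts proteins into peptides, and interferon gamma induces catalytic subunits that replace the constitutive ones and change which peptides are made. The transporter of TAP1 and TAP2 carries peptides into the endoplasmic reticulum, where tapasin bridges it to an empty class I chain paired with beta-2-microglobulin. In mammals NLRC5 drives class I and related genes, and CIITA drives class II genes, which professional antigen-presenting cells such as macrophages and B cells use. Hepatocytes carry class I and normally little class II.

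Between these libraries the 10 genes did not move as a block. The widest difference was in psmb8a, which was close to 2-fold higher in the ambp ko library, and psmb13a and nlrc5 were higher by less. The tapasin gene tapbp.1 was lower, b2m was almost level, and psmb9a, which lies in the same run of genes as psmb8a, was not higher. By a 2-fold rule on log2 ratios with 1 CPM added to each level, 0 of 10 genes were past the line in either direction, where 5.40% of all 11634 measured genes were past it upward and 6.40% downward. The log2 ratio (ambp ko over WT) was above 0 for 7 of the 10, against 49.8% of all genes, and its median was 0.23 against 0.00 for all genes. All 10 had at least 1 CPM in a library, and 9 had it in WT. The exception was tap2a, which counted as measured through the ko library alone and had to lie above 0. Of the 9 with at least 1 CPM in WT, 6 were above 0, against 4807 of 10642 such genes in the whole table.

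**Figure D1:**
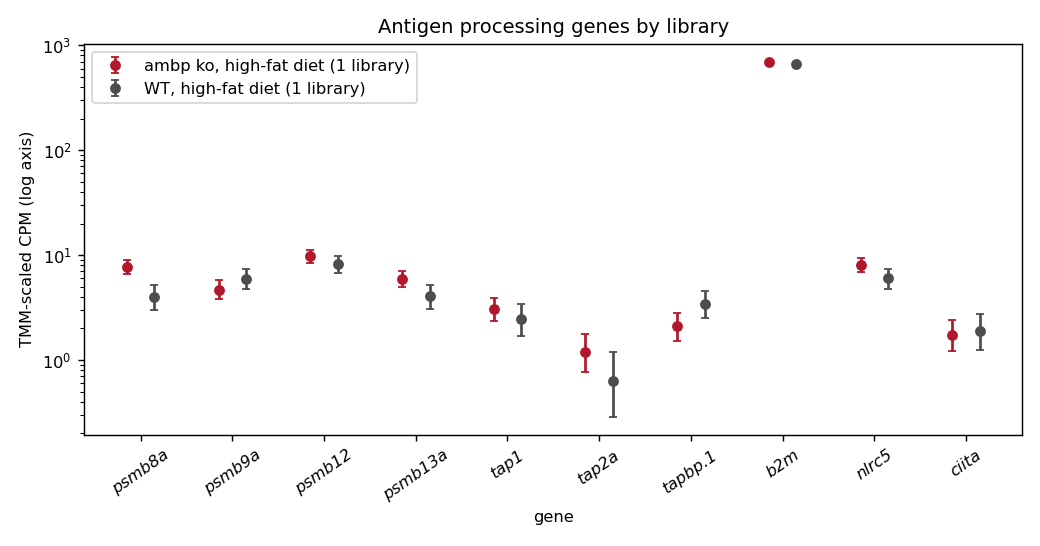
Level of each of the 10 genes as TMM-scaled CPM (log axis) in the ambp ko library (red, left) and the WT library (grey, right), with 95% Poisson intervals for counting error. The genes span from tap2a at 1.197 CPM in ambp ko and 0.627 CPM in WT to b2m at 686 CPM in ambp ko and 664 CPM in WT, and only for psmb8a are the intervals of the libraries apart.

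The widest difference among the members was in a proteasome gene. The gene psmb8a encodes the inducible form of the chymotrypsin-like subunit and takes the place of psmb5. It had 155 reads in ambp ko and 57 reads in WT, which is 7.73 CPM (6.56 to 9.05) in ambp ko and 3.97 CPM (3.01 to 5.15) in WT. The ko level was 1.95-fold the WT level, with a counting interval of 1.43 to 2.68. Its log2 ratio of 0.81 stayed inside the 2-fold line, but with library totals in place of TMM it was 1.02, just past it, a scaling that puts 9.12% of all genes there.

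The gene psmb13a, placed by its RefSeq synonym at the same catalytic position as psmb7, had 119 reads in ambp ko and 58 reads in WT. Its levels were 5.94 CPM in ambp ko and 4.04 CPM in WT, a fold of 1.47 (1.06 to 2.05). The gene psmb12, placed by its synonym at the position of psmb6, had 195 reads in ambp ko and 118 reads in WT. At 9.73 CPM in ambp ko and 8.23 CPM in WT its fold was 1.18 (0.936 to 1.499), an interval that includes 1. The inducible subunit gene psmb9a, whose product takes the place of that of psmb6, had 94 reads in ambp ko and 85 reads in WT. That is 4.69 CPM in ambp ko and 5.93 CPM in WT, a fold of 0.791 (0.584 to 1.07), so it pointed the other way from psmb8a without leaving the counting error.

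The ratio of these genes to each other within a library does not depend on how libraries are scaled. Of the reads on psmb8a and psmb9a together, psmb8a took 62.2% in ambp ko (55.9 to 68.3, exact binomial) and 40.1% in WT (32.0 to 48.7). These intervals are apart. By FPKM, which also scales reads by gene length, psmb8a stood at 6.89 FPKM and psmb9a at 4.44 FPKM in ambp ko, while in WT psmb8a stood at 2.97 FPKM and psmb9a at 4.71 FPKM. The order of the 2 genes was thus opposite in the 2 libraries. In the RefSeq table the 2 genes overlap on the chromosome, so some of their reads may be shared.

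The constitutive subunits, which sit in the proteasome of nearly all cells, were all higher in the ambp ko library. The gene psmb5 was at 24.8 CPM in ambp ko and 18.8 CPM in WT. The gene psmb7 was at 20.8 CPM in ambp ko and 14.4 CPM in WT. The gene psmb6 showed the widest difference of the 3, at 25.3 CPM in ambp ko and 11.5 CPM in WT, and was the only one past 2-fold (log2 ratio 1.08). Of all measured genes, 49.8% had ratios above 0 and 5.40% were past 2-fold upward. The median log2 ratio of the 3 constitutive genes was 0.50, above the 0.22 of the 5 measured genes in the immunoproteasome list.

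Set against its constitutive partner, only psmb8a took a larger share of the pair's reads in ambp ko by more than a point. Its share beside psmb5 was 23.8% in ambp ko (20.6 to 27.2) and 17.4% in WT (13.5 to 22.0), and these intervals overlap. For psmb9a beside psmb6 the share was 15.6% in ambp ko (12.8 to 18.8) and 34.0% in WT (28.1 to 40.2). For psmb12 beside psmb6 it was 27.7% in ambp ko (24.5 to 31.2) and 41.7% in WT (35.9 to 47.7). Both shares with psmb6 were lower in ambp ko with intervals apart, and both carry the same psmb6 reads.

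The share of psmb13a beside psmb7 was 22.2% in ambp ko and 21.9% in WT, with intervals from 18.8 to 26.0 and from 17.1 to 27.4. The classical inducible partner of psmb7, psmb10, is not one of the 10 genes. It had 117 reads in ambp ko and 88 reads in WT, and its share beside psmb7 was 22.0% in ambp ko and 29.8% in WT. Over the 4 proteasome members and the 3 constitutive subunits together, the 4 took 28.4% of reads in ambp ko (26.4 to 30.4) and 33.1% in WT (30.2 to 36.2). Scaled by length with FPKM, the same share was 31.3% in ambp ko and 36.3% in WT. These read intervals overlap slightly. Without the psmb6 reads the 4 took 38.1% in ambp ko (35.7 to 40.7) and 40.0% in WT (36.6 to 43.5), so most of the gap lay in psmb6. The larger part of the catalytic subunit reads was constitutive in both libraries.

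**Figure D2:**
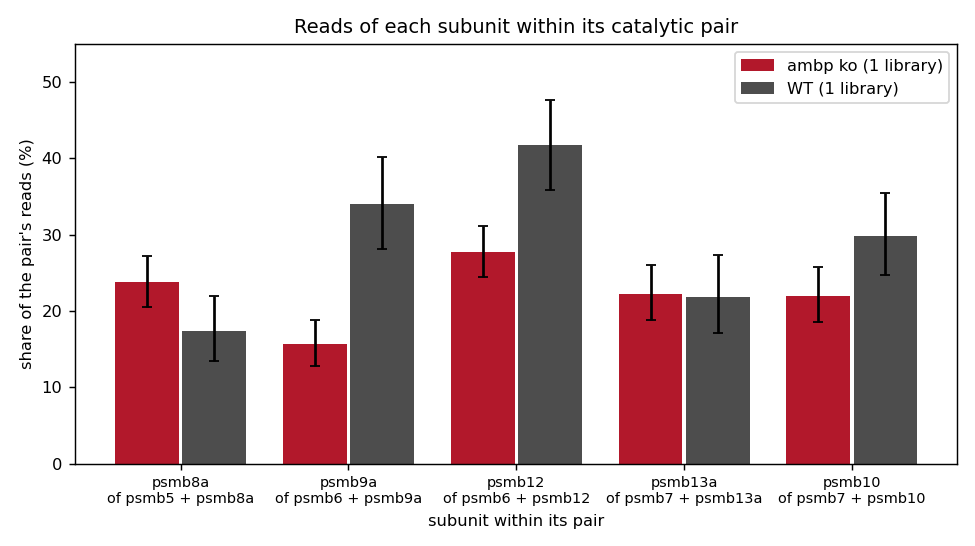
Share of a pair's reads (%) taken by psmb8a, psmb9a, psmb12, psmb13a and psmb10 beside the constitutive subunit at the same position, in the ambp ko library (red, left) and the WT library (grey, right), with 95% exact binomial intervals. The share of psmb8a is 23.8% in ambp ko and 17.4% in WT, whereas that of psmb9a is 15.6% in ambp ko and 34.0% in WT.

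Genes for the other core subunits, the activators and the assembly factors stayed inside the 2-fold lines with 1 CPM added. Of 14 measured genes for other subunits of the core, 10 had log2 ratios above 0, against 49.8% of all genes, and the median was 0.14. The widest were psma6b, a fold of 1.69 (1.35 to 2.13), and psmb4, a fold of 1.47 (1.30 to 1.67). The most abundant were the row named PSMA8, deposited as psma7, at 64.0 CPM in ambp ko and 50.3 CPM in WT, and psma4 at 53.1 CPM in ambp ko and 48.2 CPM in WT. The interferon-inducible activator of the core is built from psme1 and psme2, which were level, with folds of 1.07 (0.955 to 1.21) and 1.07 (0.948 to 1.2). The chaperone pomp, which helps to assemble new cores, was at 17.7 CPM in ambp ko and 23.0 CPM in WT, a fold of 0.768 (0.659 to 0.895). Over the 10 activator and assembly genes 5 ratios were above 0, near the 49.8% of all genes. None was past the 2-fold lines in this list or among the 14, where 5.40% of all genes were past upward and 6.40% downward. The gene psmg3 came nearest, at -0.97, a fold of 0.483 (0.396 to 0.586). Next was psme4a, at 0.83 on 28 reads in ambp ko and 5 reads in WT, which counted as measured through the ko library alone. Its fold was 4.01 (1.53 to 13.3), so without the added 1 CPM psme4a and psmg3 both differed by more than 2-fold.

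The peptide transporter was expressed at a low level in both libraries. The gene tap1, which encodes one chain of it, had 61 reads in ambp ko and 35 reads in WT, or 3.04 CPM in ambp ko and 2.44 CPM in WT. Its fold of 1.25 had an interval of 0.81 to 1.95. The partner chain gene tap2a had 24 reads in ambp ko and 9 reads in WT, a fold of 1.91 whose interval ran from 0.856 to 4.66. Both intervals include 1 by TMM. With library totals the fold of tap2a was 2.27 and its interval, 1.02 to 5.56, lay just above 1, so that its call depends on the scaling. A related gene, tap2t, was more abundant than tap2a, with 7.98 CPM in ambp ko and 7.18 CPM in WT, and per length it stood at 3.07 FPKM in ambp ko and 2.32 FPKM in WT. Its deposited counts were not whole, and copies of tap2 can share reads, so the split between the copies is uncertain.

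The tapasin copies differed from each other. The gene tapbp.1 had 42 reads in ambp ko and 49 reads in WT, which is 2.095 CPM (1.51 to 2.83) in ambp ko and 3.42 CPM (2.53 to 4.52) in WT. Its fold was 0.613 (0.396 to 0.946), and it was the only one of the 10 genes whose interval lay below 1, where 29.6% of all genes had theirs. With library totals the fold was 0.731 and the interval, 0.472 to 1.13, included 1. The second copy, tapbp.2, had 43 reads in ambp ko and 23 reads in WT, a fold of 1.34 (0.789 to 2.33). Of the reads on both copies tapbp.1 took 49.4% in ambp ko (38.4 to 60.5) and 68.1% in WT (56.0 to 78.6), and these intervals overlap. The copies may share reads.

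The other genes of peptide loading leaned downward by TMM. Without the 3 members of that list, 13 genes were measured, of which 4 had ratios above 0, against 49.8% of all genes. The other 9 lay below, and the median was -0.25. With library totals, which put 64.7% of all genes above 0, some of them crossed to above 0, such as lnpep at 0.12. The median of the whole list, members included, less that of all genes was -0.23 by either scaling. The lectin chaperone gene canx, whose product holds new class I chains, was at 50.5 CPM in ambp ko and 94.1 CPM in WT, a fold of 0.536 (0.494 to 0.582). Calreticulin genes, which act at the next step, were lower too. The row calr3a was at 114 CPM in ambp ko and 173 CPM in WT. By TMM calr3b was the only gene of the list past 2-fold (log2 ratio -1.05), where 6.40% of all genes were past it downward. The level of calr3b was 7.73 CPM in ambp ko and 17.1 CPM in WT, and with library totals it lay inside the line, at -0.82.

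The disulfide isomerase gene pdia3, also part of the loading complex, was the most abundant of the list and lay on the other side, at 290 CPM in ambp ko and 230 CPM in WT. The tapasin relative tapbpl, which edits peptides on class I in mammals, had 118 reads in ambp ko and 167 reads in WT, a fold of 0.506 (0.396 to 0.644). By FPKM it was nearly level, at 3.67 FPKM in ambp ko and 3.82 FPKM in WT, and the gene lengths implied by counts and FPKM differed between the libraries, so its difference depends on the unit. The cytosolic peptidase thop1, which destroys peptides, lay just inside the lower line, on 69 reads in ambp ko and 113 reads in WT. Without the added 1 CPM its fold was 0.437 (0.319 to 0.595), and that of calr3b was 0.453 (0.368 to 0.556). Of the 2 rows named ERAP1, whose product trims peptides in the endoplasmic reticulum, ENSDARG00000013024 was at 10.4 CPM in ambp ko and 7.18 CPM in WT and ENSDARG00000021859 at 15.3 CPM in ambp ko and 17.8 CPM in WT.

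The class I light chain gene b2m was by far the most abundant of the 10. It had 13750 reads in ambp ko and 9530 reads in WT, or 686 CPM (675 to 698) in ambp ko and 664 CPM (651 to 678) in WT. The fold was 1.03 (1.01 to 1.06) by TMM and 1.23 (1.199 to 1.26) by library totals. With library totals the middle of all 11746 genes measured that way lay at a log2 ratio of 0.22, and b2m lay at 0.30. So b2m stayed near the middle of all genes either way. In the deposited table the row is called IRAK3, a name that Ensembl gives to another row, and the identifier was followed here. The name b2m, in some letter case, is borne there by 3 other rows, among them b2ml and mhc1zba.

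Of 38 names in the class I list, 20 were matched, and among the matched heavy chains a single gene led. The Z-lineage gene mhc1zba was at 269 CPM in ambp ko and 293 CPM in WT, a fold of 0.919 (0.883 to 0.957). Per length it stood at 0.192 of the b2m level in ambp ko and 0.215 in WT. Its deposited counts were not all whole. The second light chain gene, b2ml, was at 180 CPM in ambp ko and 169 CPM in WT. Among the 8 measured genes of the class I list, b2m and b2ml included, 6 ratios were above 0, against 49.8% of all genes. None was past 2-fold, against 5.40% of all genes upward and 6.40% downward. Of the 7 with at least 1 CPM in WT, 5 were above 0, against 4807 of 10642 such genes. The widest were mhc1lca at -0.92, on 15 reads in ambp ko and 33 reads in WT, and mhc1lda at 0.66. The gene mhc1lda, on 38 reads in ambp ko and 12 reads in WT, counted as measured through the ko library alone and had to lie above 0.

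The classical U-lineage chains that were matched and lie beside tapbp.1 and psmb8a were hardly seen. The gene mhc1uba had 0 reads in both libraries and mhc1uka, named mhc1uca by Ensembl, had 5 reads in ambp ko and 4 reads in WT. As a one-sided 95% limit, a count of 0 allows up to 3 reads. As background, zebrafish are known to carry divergent versions of this region that differ in gene content, so reads from a version unlike the reference may not have been counted. Which versions these fish carried is not stated in the sources used here, and the part of this in any value was not tested.

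Of the 10 genes, 6 are neighbours. In the RefSeq table of the assembly GRCz12tu, used here for order alone, tapbp.1, psmb8a, psmb13a, psmb12, psmb9a and tap2a lie within one run of 9 protein-coding genes with mhc1uka, tapbp.2 and mhc1uba. The log2 ratios along this run were uneven, from -0.51 for tapbp.1 to 0.81 for psmb8a. Above 0 were 5 of its 7 measured genes, against 49.8% of all genes. Of these 5, tap2a counted as measured through the ko library alone and had to lie above 0. Of the 6 genes of the run with at least 1 CPM in WT, 4 were above 0. Of the measured genes among the 5 protein-coding genes on either side, 1 of 6 was above 0. With library totals 3 of these 6 flanking genes were above 0, and still 5 of the 7 in the run, against 64.7% of all genes. The one above 0 by TMM was kifc1, which counted as measured through the ko library alone, on 21 reads in ambp ko and 4 reads in WT, and the others ranged from brd2a at -0.70 to sdha at -0.06. The gene brd2a, which encodes a chromatin reader and follows tap2a directly, was at 11.0 CPM in ambp ko and 18.5 CPM in WT. In the same table psmb13a overlaps psmb8a, psmb12, psmb9a and tap2a on the chromosome, and psmb8a also overlaps psmb12 and psmb9a. Whether reads were counted by strand is not stated in the sources used here, so their reads may be partly shared, and their values are uncertain to that extent.

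**Figure D3:**
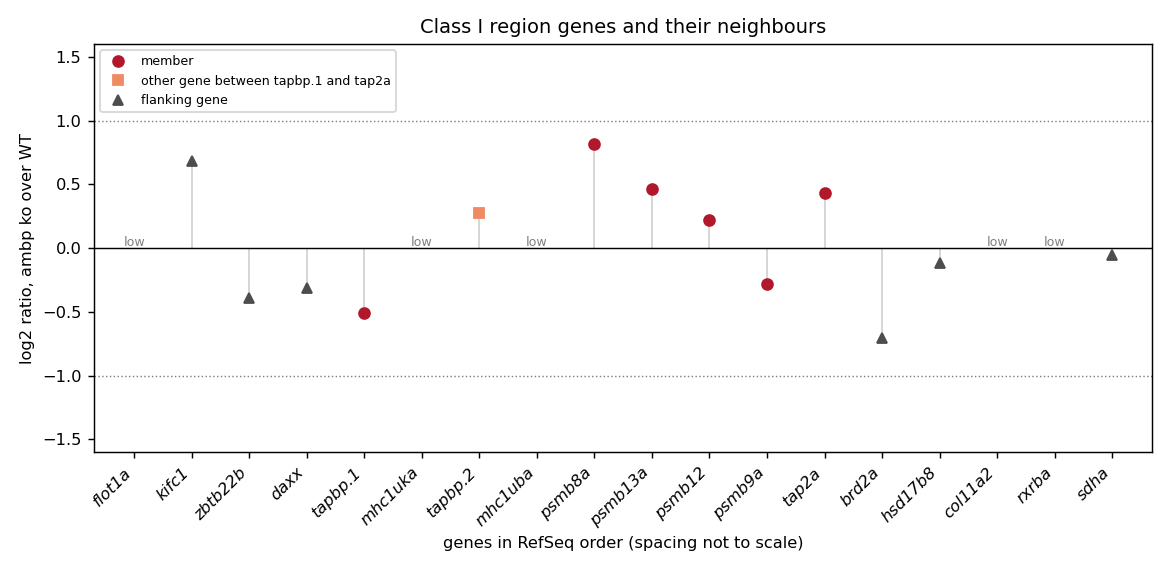
Log2 ratio (ambp ko over WT, y axis) of the genes from tapbp.1 to tap2a and their flanking genes, in RefSeq order and not to scale, with members as red circles, other genes of the run as orange squares and flanking genes as grey triangles. Genes under 1 CPM in both libraries are marked low, and dotted lines mark 2-fold. The highest point is psmb8a at 0.81, and brd2a at -0.70 is the lowest.

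The regulator nlrc5 had 163 reads in ambp ko and 86 reads in WT. Its level was 8.13 CPM (6.93 to 9.48) in ambp ko and 5.996 CPM (4.796 to 7.405) in WT, a fold of 1.36 (1.04 to 1.78). The class II regulator ciita had 35 reads in ambp ko and 27 reads in WT, or 1.75 CPM in ambp ko and 1.88 CPM in WT. Its fold of 0.928 (0.546 to 1.59) by TMM turned to 1.11 (0.65 to 1.90) by library totals, so its direction is not fixed by these data. The deposited table calls this row NLRP9. Of the reads on both regulators nlrc5 took 82.3% in ambp ko (76.3 to 87.4) and 76.1% in WT (67.2 to 83.6), with overlapping intervals.

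Beside it, 24 further rows of the deposited table bear the name of nlrc5 in some letter case. Zebrafish have a large family of related receptors, and Ensembl does not give these rows that name. Only 4 of them had at least 1 CPM in a library and 6 had no read. The highest in reads was nlrc6, with 137 reads in ambp ko and 77 reads in WT. The row si:ch211-196h16.5 had 125 reads in ambp ko and 55 reads in WT, a fold of 1.63 (1.18 to 2.28). Lower in ambp ko was si:dkeyp-123a12.2, on 18 reads in ambp ko and 21 reads in WT, a fold of 0.613 (0.308 to 1.21). The row si:dkey-190j3.4, on 24 reads in ambp ko and 1 read in WT, counted as measured through the ko library alone. Near-identical copies in this family can share reads. The deposited count of nlrc5 itself was whole in both libraries, as it was for all 10 genes.

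The partners through which NLRC5 and CIITA reach DNA were mostly lower in the ambp ko library by TMM. Without these regulators, 9 genes of the RFX, NF-Y and CREB families were measured. Of these, 8 had ratios below 0 and 1 above, where 49.8% of all genes lay above, and the median was -0.52. None of the 9 was past 2-fold, against 5.40% of all genes upward and 6.40% downward. With library totals rfxap (0.01) and creb1a (0.12) moved above 0, where 64.7% of all genes lay. The median of the whole list, both regulators included, less that of all genes was -0.32 by TMM and -0.30 by library totals. The most abundant were atf1, at 26.3 CPM in ambp ko and 40.1 CPM in WT, and nfyc, at 19.9 CPM in ambp ko and 25.2 CPM in WT. The row named NFYB was at 15.8 CPM in ambp ko and 23.1 CPM in WT. A row of nfya (ENSDARG00000042004) had the widest ratio, -0.79, on 28 reads in ambp ko and 45 reads in WT, and its other row pointed upward (0.24).

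**Figure D4:**
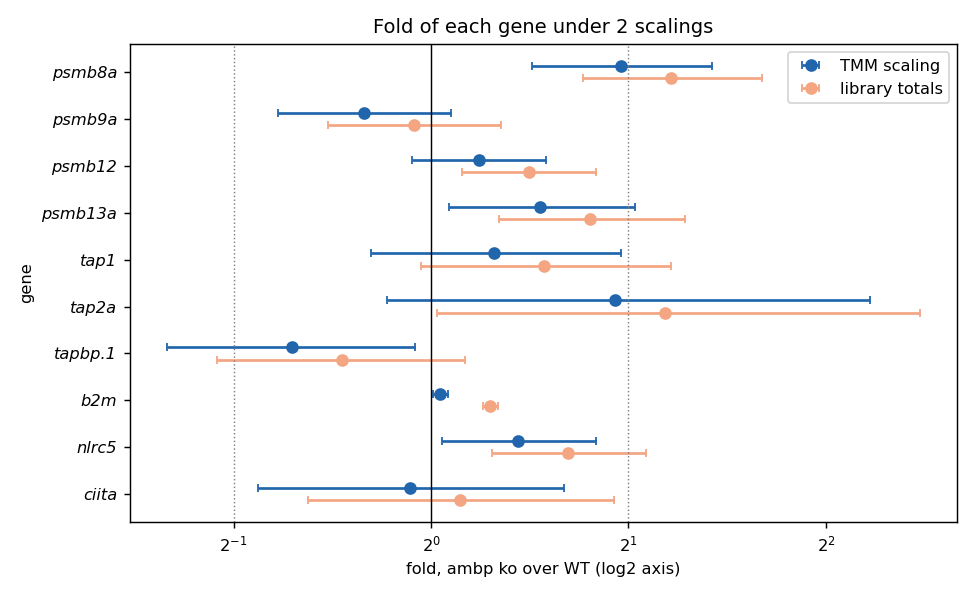
Fold of each of the 10 genes (ambp ko over WT, log2 axis) with 95% counting intervals, under TMM scaling (blue) and library totals (orange). Dotted lines mark 2-fold. Under TMM the intervals of psmb8a, psmb13a, b2m and nlrc5 lie above 1 and that of tapbp.1 below it, and library totals move every gene to the right.

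By TMM 4 of the 10 genes had a counting interval above 1, psmb8a, psmb13a, b2m and nlrc5, where 27.2% of all measured genes did. Of these, b2m was almost level, with a fold of 1.03 (1.01 to 1.06). With DESeq2 size factors its log2 ratio was 0.03, and its interval by those factors is not given here. With library totals the number was 6, as psmb12 and tap2a joined, where 41.0% of all genes had an interval above 1. By the same scaling tapbp.1 no longer had an interval below 1, where 18.7% of all genes did. By that scaling 8 of the 10 ratios were above 0, tap2a, which had to lie there, among them, against 64.7% of all genes.

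Class II chains were measured as the arm that ciita serves, with invariant chain and lysosomal processing genes in the same list. Of 11 measured genes 8 had ratios above 0, against 49.8% of all genes, and the median was 0.15. In the list 1 gene was past 2-fold upward and 1 downward, against 5.40% and 6.40% of all genes. Among the measured chains mhc2dab, mhc2daa and mhc2dga (log2 ratio -0.12) lay below 0, and mhc2dgb (0.40) lay above. The invariant chain genes cd74a and cd74b, whose products guard the class II groove, were at 131 CPM and 91.7 CPM in ambp ko, against 118 CPM and 77.8 CPM in WT. The lysosomal protease gene ctsla was the most abundant, at 255 CPM in ambp ko and 231 CPM in WT. A cathepsin S gene, ctss2.1, was highest by ratio (1.16), at 6.24 CPM in ambp ko and 2.23 CPM in WT.

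The class II chain mhc2dab stood apart, with 0 reads in ambp ko and 66 reads in WT. Taking 3 reads as the floor in the ko library and the WT count as exact, it was at least 30.7-fold lower there. The counting interval used for the other folds gave a lower limit of 24.3-fold. The deposited WT count of mhc2dab was not whole. The alpha chain gene mhc2daa had 52 reads in ambp ko and 55 reads in WT, a fold of 0.677 (0.454 to 1.01). The more abundant beta chain gene mhc2dgb was at 48.0 CPM in ambp ko and 36.1 CPM in WT. Whether the ko fish carried this gene was not tested.

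Interferon gamma is the classical inducer of these genes, and its own transcript ifng1 had 0 reads in both libraries, as did the receptor gene ifngr1. Of 18 measured genes of the pathway list 10 had ratios above 0 and 8 below, where 49.8% of all genes lay above. In each direction 2 were past 2-fold, against 5.40% of all genes upward and 6.40% downward, and the median was 0.22. Of the 17 with at least 1 CPM in WT, 9 were above 0 and 1 was past 2-fold upward. Of all 10642 genes at that level in WT, 4807 were above 0 and 385 were past 2-fold upward. The transcription factor gene irf1b, which binds promoters of class I genes in mammals, had 122 reads in ambp ko and 34 reads in WT, a fold of 2.57 (1.74 to 3.87). By FPKM it stood at 4.71 FPKM in ambp ko and 1.21 FPKM in WT. The gene lengths implied by counts and FPKM differed, at 1411 in ambp ko and 1794 in WT, so the size of its difference depends on the unit. The kinase gene jak1 was at 50.4 CPM in ambp ko and 29.1 CPM in WT.

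Other genes of the list went the opposite way. The feedback inhibitor gene SOCS1 had 28 reads in ambp ko and 87 reads in WT, a log2 ratio of -1.56. The guanylate-binding protein gene gbp3 was at -1.41, but its relatives did not share this direction. The more abundant gbp2 and gbp1 lay above 0, at log2 ratios of 0.79 and 0.33. The receptor gene ifngr1l was at 1.41 on 37 reads in ambp ko and 1 read in WT, too few in WT for a usable fold. It counted as measured through the ko library alone and had to lie above 0. The most abundant gene, ido1, which breaks down tryptophan, was at 72.3 CPM in ambp ko and 78.4 CPM in WT.

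Genes induced by interferons of any type mostly had ratios above 0. Of 21 measured, 5 counted as measured through the ko library alone, and these 5 had to lie above 0. Of the 16 with at least 1 CPM in WT, 13 had ratios above 0, against 4807 of 10642 such genes in the whole table. Past 2-fold upward were 3 of the 16, against 385 of the 10642, and none was past it downward. The ubiquitin-like isg15 was highest by ratio (1.64), at 46.5 CPM in ambp ko and 14.2 CPM in WT. The antiviral GTPase gene mxc (1.59), one of those measured through the ko library alone, and ifit8 (1.56) came next. The factor gene stat2 was at 38.5 CPM in ambp ko and 19.0 CPM in WT. The gene trim25 had the highest WT level of the list and differed less. It was at 37.4 CPM in ambp ko and 33.3 CPM in WT, a fold of 1.13. Below 0 were 3 genes, ifih1, mxb and mxe. By TMM ifih1 had a fold of 0.598 (0.412 to 0.866), and the intervals of mxb and mxe included 1. With library totals the interval of ifih1, 0.491 to 1.03, included 1 too.

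Most macrophage markers had ratios above 0. Of the 8 with at least 1 CPM in WT, 7 did, against 4807 of 10642 such genes in the whole table. Past 2-fold upward were 2 of the 8, against 385 of the 10642, and csf1ra counted as measured through the ko library alone. The macrophage markers summed to 209 CPM in ambp ko and 159 CPM in WT, of which cd74a alone made up 131 CPM in ambp ko and 118 CPM in WT. The receptor gene csf1ra had 75 reads in ambp ko and 10 reads in WT, and marco was at 11.5 CPM in ambp ko and 4.18 CPM in WT. Of 5 neutrophil markers matched, the row deposited as Mpo (ENSDARG00000019521) had 556 reads in ambp ko and 1 read in WT, and the list summed to 36.2 CPM in ambp ko and 3.21 CPM in WT. That row alone made up 27.7 CPM of the sum in ambp ko. The marker mmp9, the one with at least 1 CPM in WT, was at 2.195 CPM in ambp ko and 2.44 CPM in WT.

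Lymphocyte and dendritic cell markers were near the floor. The 11 matched T and NK cell markers summed to 4.94 CPM in ambp ko and 2.30 CPM in WT, with cd8b and prf1.1 at 0 reads in both libraries. The 7 B cell markers summed to 2.34 CPM in ambp ko and 0.697 CPM in WT, with pax5 and ighd at 0 in both and ighm at 35 reads in ambp ko and 4 reads in WT. The 4 dendritic cell markers summed to 0.748 CPM in ambp ko and 0.139 CPM in WT. Of the other cell types, 5 endothelial markers summed to 80.2 CPM in ambp ko and 74.7 CPM in WT, and 3 erythroid markers to 201 CPM in ambp ko and 375 CPM in WT. Bulk libraries cannot tell more cells of a type from more RNA per cell, and the part of these cells in the values of psmb8a, psmb13a and nlrc5 was not tested.

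**Figure D5:**
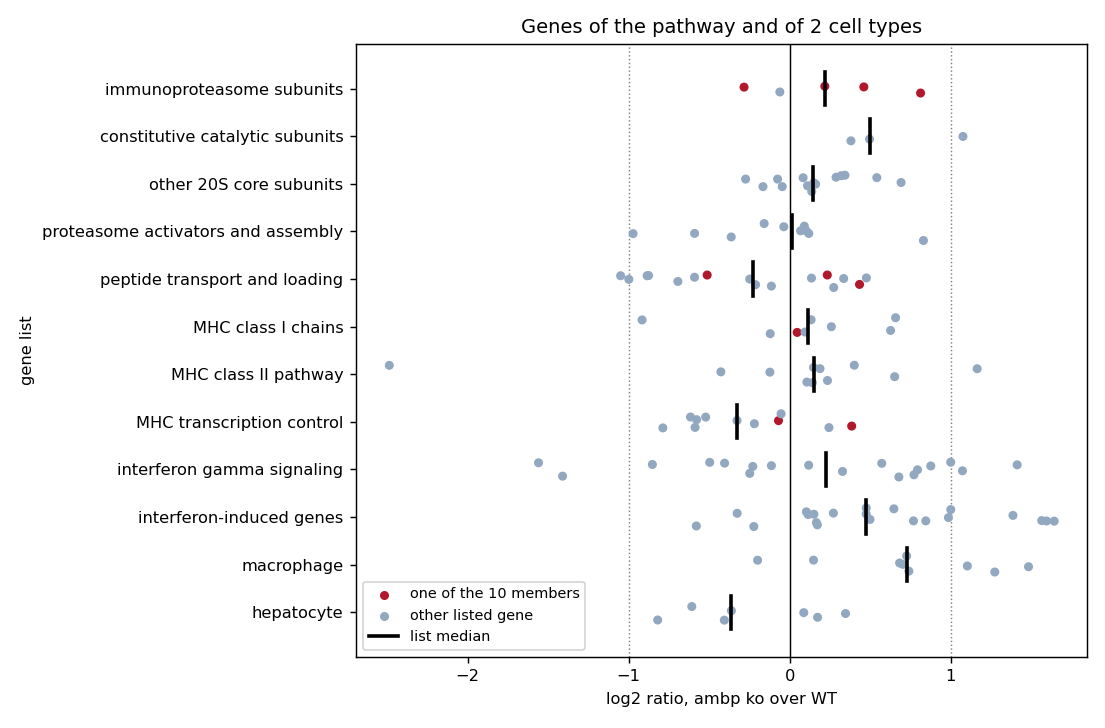
Log2 ratio (ambp ko over WT, x axis) of each measured gene in 12 lists, with the 10 members in red, other genes in blue, list medians as black bars and dotted lines at 2-fold; vertical scatter within a list has no meaning. Medians are 0.22 for immunoproteasome genes, 0.50 for constitutive catalytic subunits, -0.23 for peptide loading, 0.47 for interferon-induced genes and 0.73 for macrophage markers; genes under 1 CPM in WT are plotted too and had to lie above 0.

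Per length, the order of the 10 genes was alike at its ends in both libraries. In ambp ko b2m led with 661 FPKM, then psmb12 with 12.2, psmb8a with 6.89, psmb13a with 5.99 and psmb9a with 4.44 FPKM. Below them were tap1 with 1.42, nlrc5 with 1.38, tapbp.1 with 1.33, ciita with 0.50 and tap2a with 0.41 FPKM. In WT b2m led with 538 FPKM, then psmb12 with 8.63, psmb9a with 4.71, psmb13a with 3.40 and psmb8a with 2.97 FPKM. Next were tapbp.1 with 1.82, tap1 with 0.87, nlrc5 with 0.86, ciita with 0.45 and tap2a with 0.18 FPKM. The light chain was thus far above every other gene of the set, and psmb8a was the second highest of the 4 proteasome members in ambp ko and the lowest of them in WT. The gene lengths implied by counts and FPKM differed between the libraries by under 5% for 9 of the 10 genes. For tap1 they differed by more, so its FPKM values are less comparable.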

How the data were processed

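The authors deposited estimated counts per gene and FPKM values for 2 liver libraries, per the file headers; counts were not whole for 6.01% of genes in ambp ko and 5.45% in WT, for a reason not stated in the sources used here. Per the submitters' processing notes, HISAT2, featureCounts and GRCz11 are named, with no version or role. Counts were rounded first. Of the sample columns, 4 were used. Library sizes were scaled by TMM with edgeR 4.0.16 in R 4.3.3 (factors 1.09 for ambp ko and 0.916 for WT), with DESeq2 1.42.0 size factors as an alternative. Genes with at least 1 CPM in a library were kept. One read was worth 0.0499 CPM in ambp ko and 0.0697 CPM in WT. Folds are CPM ratios without a pseudocount; log2 ratios add 1 CPM, which understates low genes. Intervals are exact Poisson for levels, exact conditional binomial for folds and Clopper-Pearson for shares, computed with scipy 1.17.1.

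The members, lists and alternatives were chosen with earlier results of these data known. Of 252 names in 18 lists, 204 were matched, 26 of them through hand-checked synonyms after the files were read. Named genes were the 10 members, psmb5, psmb6, psmb7, ambp, in each list the 2 most abundant and the 2 most different genes, and markers at 0; the rest were chosen after their values were seen, as were the flanking genes and the pairs whose read shares are given. Scaling and the 2-fold rule were tested on simulated data with counting noise alone, using 4-fold changes in genes of at least 10 CPM. Of the 10 members only b2m reached that level, so the test does not cover smaller differences in genes as low as the others. Some genes the rule names are not reported here. Sequences and coordinates were not used here.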

Additional observations from a re-analysis of the deposited data

How the results depend on the processing

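No paired analysis was possible because each genotype has 1 library. The median log2 ratio of the 10 genes less that of all genes was 0.23. For the members measured in each setting, it stayed between 0.13 (5 CPM added to each level) and 0.28 (0.1 CPM added). This covers the 7 other scalings, pseudocounts, filters and units tried, of which FPKM left 8 of the 10 measured and a 10 CPM filter left 1. With library totals, and again at a 1.5-fold rule, 1 of the 10 genes was past the line upward, psmb8a in both cases, against 0 in the other settings. None was past it downward in any setting. A 10 CPM filter left b2m alone, so that 1 ratio was above 0. Over all genes, library totals gave 1071 higher and 485 lower. Adding 0.1 CPM gave 1279 higher and 1212 lower, and adding 5 CPM gave 151 higher and 319 lower. Keeping genes from 10 CPM upward gave 227 higher and 433 lower. The 1.5-fold rule gave 1904 higher and 1971 lower, and the 4-fold rule gave 59 higher and 91 lower. FPKM gave 646 higher and 358 lower. Filters and fold rules count other genes by construction, and the cause of the other shifts was not tested. Of the ratios of single members under these alternatives, 48 moved by less than the counting error, and 2, both of b2m at 0.30, with library totals and with FPKM, moved by more. Depth limits tap2a, ciita, tapbp.1 and tap1 most, with at most 61 reads each in a library.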
